A study of Mus musculus with 12 samples.

Results

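The expression of 10 transcription factors that govern keratinocyte differentiation was followed in mouse back skin under imiquimod (IMQ) and a herbal covering. The genes were Trp63, Klf4, Grhl3, Ovol1, Zfp750, Prdm1, Gata3, Cebpa, Cebpb and Cebpd. They were taken by name as a set of known regulators and not by their values, though earlier results of these data were known. All 10 had a row in the file of 18505 genes, and all 10 were among the 15288 genes that were tested.

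RNA-seq had been performed on back skin of male wild-type BALB/c mice, 5 to 6 weeks old, whose backs had been shaved. The control group (n = 4) received petroleum jelly, the IMQ + NS group (n = 4) received IMQ cream followed by a covering of normal saline, and the IMQ + BZLF group (n = 4) received the same cream followed by a covering of Banzhilian formula (BZLF), a mixture used in Chinese medicine. The paper describes gauze and a polyurethane film that held the covering in place in both IMQ groups, and none for the control group. In every comparison with control, IMQ and the covering therefore differ together and cannot be told apart. All 12 samples were from day 10 of daily treatment, and no dose of BZLF is given for them. Repeated IMQ, an agonist of Toll-like receptor 7, gives mouse skin a thickened and scaly lesion that is used as a model of psoriasis. The labels do not say that the samples of a group came from separate animals, so the p-values measure only the spread between these samples.

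The epidermis renews itself from a basal layer of dividing keratinocytes. Cells that leave this layer pass through the spinous and granular layers, change their keratins, lay down the proteins and lipids of the barrier and end as cornified cells. p63, the product of Trp63, maintains the basal state and opens the epithelial program. Zfp750, Klf4, Grhl3, Ovol1 and Prdm1 act later, as cells stop dividing and form the barrier, and the CCAAT/enhancer-binding proteins (C/EBPs) mark the exit from the cell cycle and the suprabasal layers. Gata3 acts in barrier lipid synthesis and also in the inner root sheath, the sleeve of the growing hair.

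The RefSeq annotation of the mouse genome build GRCm38.p6 places Trp63 at chr16:25683763-25892088 on the plus strand, Klf4 at chr4:55527137-55532475 on the minus strand and Grhl3 at chr4:135541887-135573632 on the minus strand. Ovol1 lies at chr19:5549137-5560575 (minus), Zfp750 at chr11:121510976-121519342 (minus), Prdm1 at chr10:44437174-44528558 (minus) and Gata3 at chr2:9857078-9887953 (minus). Cebpa lies at chr7:35119293-35121928 (plus), Cebpb at chr2:167688915-167690432 (plus) and Cebpd at chr16:15887286-15889545 (plus). Genes on the opposite strand overlap Trp63, Ovol1, Gata3, Cebpa, Cebpb, Cebpd and Zfp750, and whether the reads were counted by strand is not stated. Each value stands for a whole gene, so the isoforms of Trp63 with and without the transactivation domain cannot be told apart.

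Promoters were at hand for 6 of the 10 genes, each 300 bases long, with 250 bases before and 50 bases after a RefSeq start. They are shown for Grhl3 and Prdm1, which were both higher in the lesions, and for Cebpa and Cebpb, 2 related factors that moved in opposite directions. The regions are chr4:135573583-135573882 (minus) for Grhl3, chr10:44458699-44458998 (minus) for Prdm1, chr7:35119043-35119342 (plus) for Cebpa and chr2:167688665-167688964 (plus) for Cebpb. Capitals mark matches on either strand to the KLF letters CCNCNCCC or the PRDM1 letters GAAAGT.
Grhl3: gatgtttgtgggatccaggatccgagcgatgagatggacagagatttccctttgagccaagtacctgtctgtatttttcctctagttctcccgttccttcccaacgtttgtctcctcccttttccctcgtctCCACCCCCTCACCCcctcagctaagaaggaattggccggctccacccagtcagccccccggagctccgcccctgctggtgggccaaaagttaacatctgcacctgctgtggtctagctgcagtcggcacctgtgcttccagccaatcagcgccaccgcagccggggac
Prdm1: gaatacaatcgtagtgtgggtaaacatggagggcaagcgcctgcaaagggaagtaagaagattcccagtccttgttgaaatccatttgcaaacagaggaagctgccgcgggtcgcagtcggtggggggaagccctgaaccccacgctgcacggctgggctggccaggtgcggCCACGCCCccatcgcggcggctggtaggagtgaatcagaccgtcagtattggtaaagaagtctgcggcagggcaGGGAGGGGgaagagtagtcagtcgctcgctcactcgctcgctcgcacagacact
Cebpa: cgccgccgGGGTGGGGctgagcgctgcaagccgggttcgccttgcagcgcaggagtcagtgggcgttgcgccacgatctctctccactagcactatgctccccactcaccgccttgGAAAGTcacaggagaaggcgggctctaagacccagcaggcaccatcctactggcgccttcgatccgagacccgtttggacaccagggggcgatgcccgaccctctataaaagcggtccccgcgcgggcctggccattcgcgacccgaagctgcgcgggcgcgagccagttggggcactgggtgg
Cebpb: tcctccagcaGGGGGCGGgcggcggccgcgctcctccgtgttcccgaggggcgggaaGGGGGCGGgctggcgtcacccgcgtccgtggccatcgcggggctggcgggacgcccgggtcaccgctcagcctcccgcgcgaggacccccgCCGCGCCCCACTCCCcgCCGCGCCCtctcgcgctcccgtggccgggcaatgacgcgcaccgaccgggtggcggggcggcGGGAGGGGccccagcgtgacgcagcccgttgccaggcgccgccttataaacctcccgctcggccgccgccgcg
The KLF letters were found in 49.5% of all 32851 promoters of this length, and in each of these 4, with 2 matches for Grhl3, 2 for Prdm1, 1 for Cebpa and 6 for Cebpb. Overlapping matches were counted separately. The G and C share was 58.3% for Grhl3, 59.7% for Prdm1, 67.3% for Cebpa and 80.7% for Cebpb, against a median of 52.7% over all promoters. The promoters of Klf4 and Gata3, not shown, held 9 and 3 matches. The PRDM1 letters, present in 14.3% of all promoters, matched once in the 6, at 134 bases before the start of Cebpa. No match was found in these 6 windows to the C/EBP letters TTGCNNAA (10.8% of all promoters), the GATA letters GATAA (25.4%), the GRHL letters AACNGGTT (2.09%) or the OVOL letters CCGTTA (2.76%). A match is a run of letters and not evidence of binding.

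Expression was given as FPKM (mapped fragments scaled to the length of the transcript and to the total of mapped fragments). The sum of FPKM over all genes ranged from 444660 to 506622 by sample, with 16649 to 16941 genes above 0. Depth as a number of reads is unknown. Control replicate 2 stood apart before any gene of interest was compared. Its 9 inner root sheath genes added up to 1976 FPKM, against 20.3 to 59.1 in the other controls, 8330 to 10589 in IMQ + NS and 10293 to 14555 in IMQ + BZLF. Its 10 cell division genes added up to 217 FPKM, against 21.5 to 38.1 in the other controls, 160 to 192 in IMQ + NS and 134 to 164 in IMQ + BZLF. The comparisons of the 10 factors and of the other named genes with control are therefore given with and without this sample. Krt5 and Krt14, the keratins that define the basal epidermis, had at least 405 FPKM in every sample.

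In control skin the C/EBP genes stood at the top of the set. Cebpa had a mean of 171 ± 21.6 FPKM (SD, n = 4) and Cebpb 128 ± 28.3 FPKM, and their ranges overlapped. Cebpd followed at 47.5 ± 22.5 FPKM, below every control value of Cebpb. Klf4 (36.6 ± 5.54 FPKM), Trp63 (19.1 ± 8.34), Gata3 (16.6 ± 4.61), Zfp750 (16.2 ± 4.57), Ovol1 (7.06 ± 2.81) and Grhl3 (5.79 ± 1.08) came next, each overlapping its neighbour in this order. Prdm1 was lowest at 1.79 ± 0.327 FPKM, apart from Grhl3. In the lesions Cebpb stood first, Zfp750 and Ovol1 had moved from the lower end of the order to just under the leading C/EBP genes, and Prdm1 remained last.

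**Figure D1:**
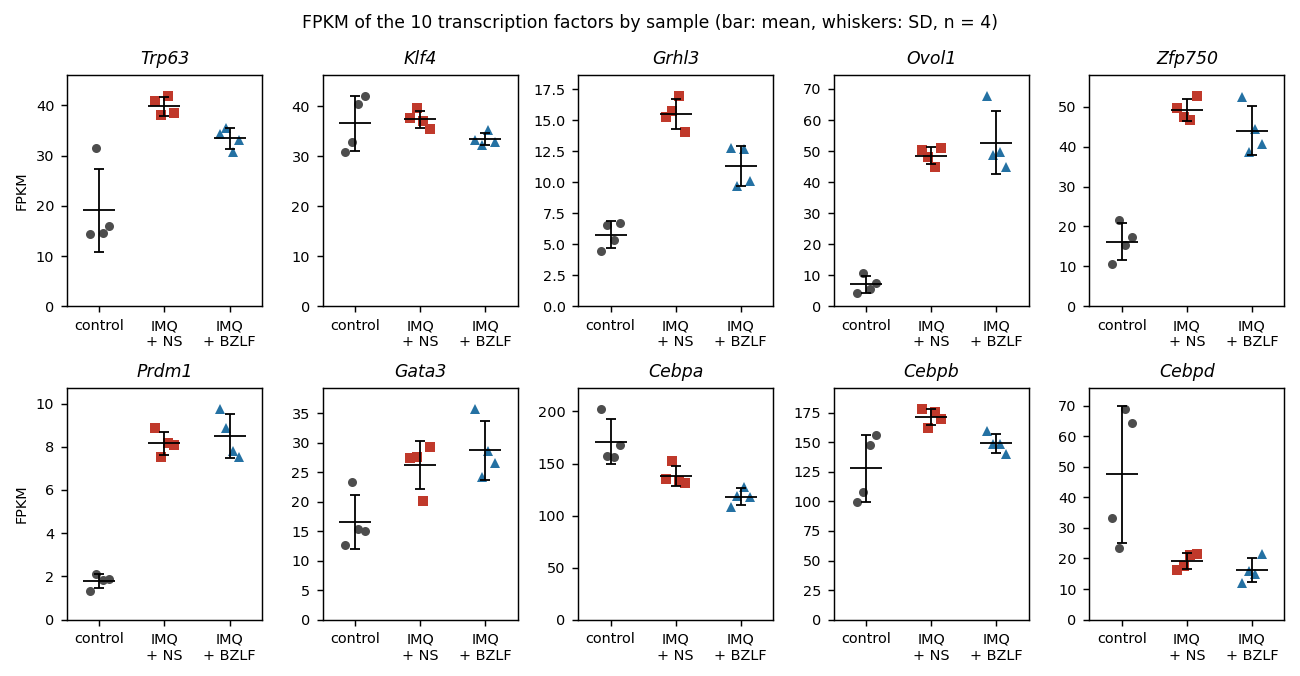
FPKM of each of the 10 genes (vertical axes, linear from 0 and different for each gene) in the 4 samples of each group, in the order of the replicate numbers from left to right, with the mean (bar) and SD (whiskers). Ovol1, Zfp750, Prdm1 and Grhl3 lie higher in every lesion sample than in any control, Cebpa and Cebpd lie lower, and the Trp63 value of control replicate 2 (31.5 FPKM) stands above the other controls.

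IMQ + NS was compared with control to ask how the covered lesion differs from skin given petroleum jelly. Of the 10 genes, 7 were higher, 2 were lower and 1 did not pass the test (limma, adjusted p below 0.05 over all genes). Over all tested genes 29.0% were higher and 27.1% lower, so that 7 in the higher direction was above the background and 2 in the lower direction was not. Past 2-fold, 5 were higher (11.4% of all genes) and 1 was lower (11.0%). The median log2 fold change was 0.91 over the 10 genes and 0.05 over all tested genes. The share of called genes that were higher was 51.7%, which changed to 38.7% with samples rescaled to equal sums of FPKM. Skin is a mixed tissue, and in such samples more cells of a type and more RNA per cell cannot be told apart.

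The largest rises were those of Ovol1, Prdm1, Zfp750 and Grhl3. Ovol1, a zinc finger repressor that helps keratinocytes leave the cell cycle, had 4.31, 10.8, 5.67 and 7.43 FPKM in control replicates 1 to 4 and 50.3, 48.0, 44.9 and 51.1 FPKM in IMQ + NS replicates 1 to 4. The groups were far apart. The log2 fold change was 2.85 (SE 0.24, adjusted p = 3.46e-05, limma), or 7.19-fold, and 3.08 without control replicate 2. Prdm1, which encodes the repressor Blimp1 of the granular layer, read 1.33, 2.09, 1.83 and 1.90 FPKM in the controls and 8.85, 7.53, 8.19 and 8.06 FPKM in IMQ + NS. No values overlapped, and the log2 fold change was 2.15 (SE 0.14, adjusted p = 9.7e-06, limma) and 2.22 without control replicate 2.

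Zfp750, a zinc finger factor that acts downstream of p63, had 10.6, 21.6, 15.4 and 17.3 FPKM in control and 49.6, 47.4, 46.7 and 52.8 FPKM in IMQ + NS skin. All lesion values lay above all control values, with a log2 fold change of 1.64 (SE 0.19, adjusted p = 0.000172, limma) and 1.79 without control replicate 2. For Grhl3, a grainyhead-like factor needed for barrier formation and wound closure, the control values were 4.47, 6.57, 5.35 and 6.76 FPKM and the IMQ + NS values 15.3, 15.8, 17.0 and 14.0 FPKM. The log2 fold change was 1.42 (SE 0.14, adjusted p = 7.36e-05, limma), again with no overlap, and 1.49 without control replicate 2.

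Trp63, the basal regulator, was at 14.3, 31.5, 14.5 and 15.9 FPKM in control and at 40.8, 38.1, 41.9 and 38.4 FPKM in IMQ + NS samples. The control value that stood apart belonged to replicate 2, and it was still below every IMQ + NS value. The log2 fold change was 1.14 (SE 0.23, adjusted p = 0.00337, limma) and 1.41 without that sample. Gata3 had 12.7, 23.3, 15.4 and 14.99 FPKM in control and 27.5, 27.6, 20.2 and 29.4 FPKM in IMQ + NS. Here the groups overlapped, since control replicate 2 exceeded IMQ + NS replicate 3. The log2 fold change of Gata3 was 0.67 (SE 0.19, adjusted p = 0.0162, limma) and 0.85 without control replicate 2.

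Klf4, a factor of barrier acquisition, did not follow the others. Its values were 30.9, 32.9, 40.5 and 42.2 FPKM in control and 37.6, 39.6, 37.0 and 35.5 FPKM in IMQ + NS, so the lesion samples fell within the control range. The log2 fold change was 0.04 with a 95% interval of -0.21 to 0.29 (adjusted p = 0.756, limma). Its sign was not stable, at -0.09 after rescaling to equal sums, -0.03 after quantile normalization or without control replicate 1, and -0.0035 without control replicate 2.

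The 3 C/EBP genes did not move together. Cebpa, linked to growth arrest, had 202, 158, 156 and 168 FPKM in control and 135, 152, 133 and 131 FPKM in IMQ + NS, with no overlap. It fell by 0.31 on the log2 scale (SE 0.10, adjusted p = 0.0252, limma), and by 0.34 without control replicate 2. Cebpd, which also responds to inflammation, had 33.2, 23.4, 68.9 and 64.3 FPKM in control and 16.4, 17.6, 21.2 and 21.5 FPKM in IMQ + NS. The controls were widely spread, yet each lay above every lesion value, and the log2 fold change was -1.18 (SE 0.33, adjusted p = 0.0146, limma), or -1.47 without control replicate 2. Cebpb, which is induced as keratinocytes begin to differentiate, read 99.5, 108, 148 and 156 FPKM in control and 178, 162, 175 and 170 FPKM in IMQ + NS. The ranges were close and did not overlap, with a log2 fold change of 0.45 (SE 0.15, adjusted p = 0.028, limma) and 0.38 without control replicate 2.

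The calls of Cebpa and Cebpb were the weakest. That of Cebpa was lost without control replicate 4 or without IMQ + NS replicate 1, 3 or 4, at log2 fold changes of -0.31 to -0.28 and adjusted p-values of 0.0529 to 0.068. That of Cebpb was lost without control replicate 1 (0.34, adjusted p = 0.0664, limma) and without IMQ + NS replicate 1, 3 or 4 (0.43 to 0.45, adjusted p 0.0589 to 0.0665). It was also lost with median ratio scaling (0.41, adjusted p = 0.0782, limma) and with equal sums of FPKM (0.31, adjusted p = 0.0989, limma). The calls of the other 7 genes were kept without any 1 sample.

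**Figure D2:**
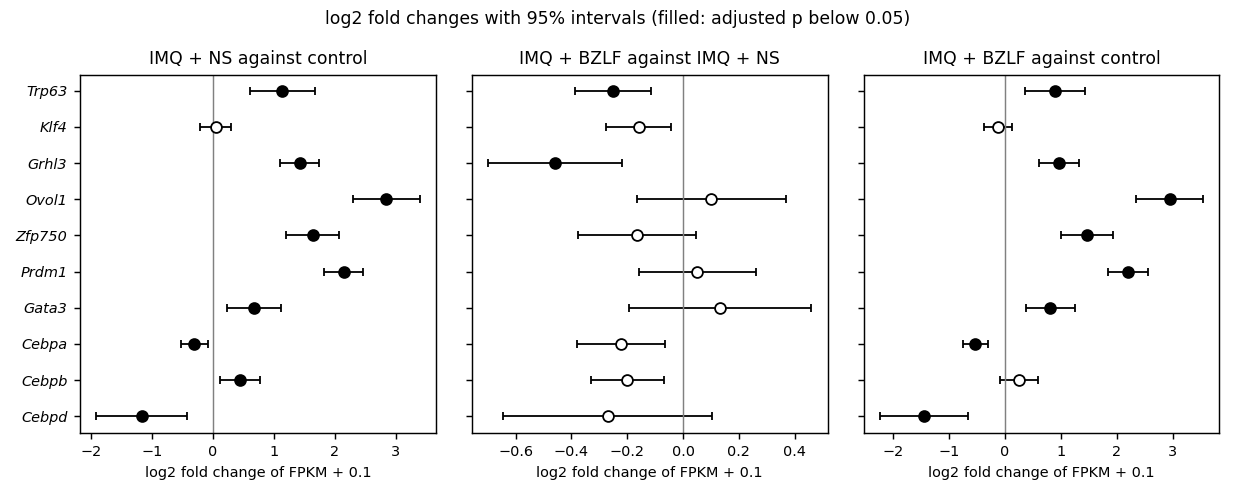
Log2 fold change of FPKM + 0.1 (horizontal axes, a different range in each panel) with its 95% interval from limma for the 10 genes in the 3 comparisons of 4 against 4 samples, filled where the adjusted p was below 0.05. Ovol1 is farthest to the right against control (2.85 and 2.95), and in IMQ + BZLF against IMQ + NS the filled points are Trp63 (-0.25) and Grhl3 (-0.46).

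Genes of the epithelium as such were also higher in the lesions. The 12 epithelial genes were all higher in IMQ + NS than in control, with a median log2 fold change of 1.42 (1.53 without control replicate 2), and their FPKM added up to 776 to 1189 in control and 2346 to 2457 in IMQ + NS. The desmosomal plakophilin genes Pkp3 (2.14, or 2.34 without control replicate 2) and Pkp1 (1.78 and 1.85) and the claudin gene Cldn4 (2.06 and 2.27) had the largest rises of the list, and Pkp1 was lower with BZLF than with saline (-0.35, adjusted p = 0.0135, limma). Adipocyte genes went the other way, from 4053 to 9106 FPKM in control to 1990 to 3134 FPKM in IMQ + NS, with 8 of 10 lower. Each sample was therefore also centred on its mean log2 level over the 12 epithelial genes, which set the median log2 fold change of all tested genes at -1.38. On that scale 4.06% of all genes were higher and 86.2% lower, with higher genes making up 4.5% of the calls, and 2 of the 10 factors were higher and 5 lower.

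Relative to the epithelial genes, Ovol1 (log2 difference 1.41) and Prdm1 (0.71) were still higher in IMQ + NS. Zfp750 (0.20, adjusted p = 0.162, limma), Grhl3 (-0.0089) and Trp63 (-0.29) did not pass the test. Gata3 (-0.76) and Cebpb (-0.98) turned to lower, as did Klf4 (-1.39), whose value was close to the median of all genes. Cebpa (-1.74) and Cebpd (-2.61) were lower on both scales and stood below that median. Gata3 and Cebpb were thus called higher against the whole skin and lower against the epithelial genes, while the calls of Trp63, Grhl3 and Zfp750 were lost and Klf4 was called lower on the centred scale alone. The part of tissue composition in these changes was not tested further.

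**Figure D3:**
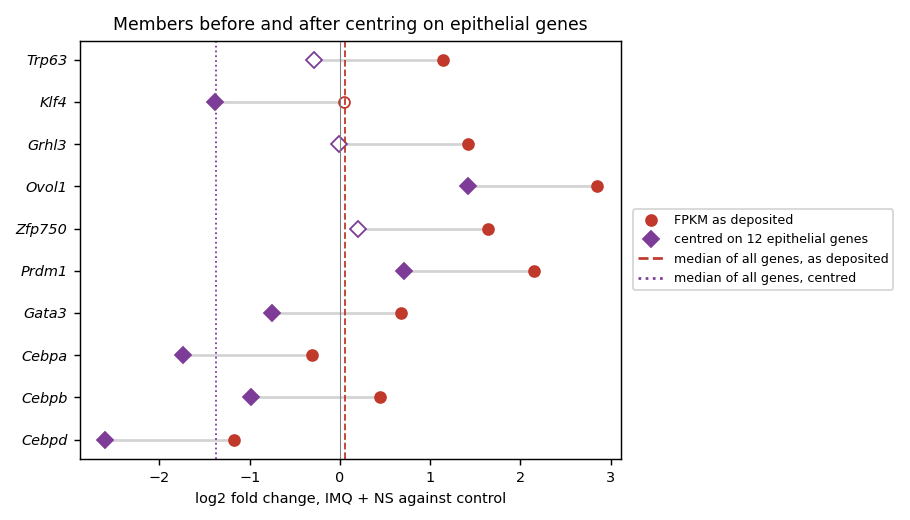
Log2 fold change in IMQ + NS against control (horizontal axis) of the 10 genes with FPKM as deposited (circles) and with each sample centred on 12 epithelial genes (diamonds), filled where the adjusted p was below 0.05. The vertical lines give the median of all tested genes, 0.05 as deposited and -1.38 after centring. Filled diamonds to the right of 0 belong to Ovol1 (1.41) and Prdm1 (0.71).

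The balance of Cebpb to Cebpa does not depend on how samples are scaled to each other, since both values come from the same sample. The ratio of their FPKM was 0.492, 0.686, 0.945 and 0.930 in control replicates 1 to 4, 1.32, 1.06, 1.32 and 1.30 in IMQ + NS and 1.48, 1.25, 1.17 and 1.19 in IMQ + BZLF. Cebpa exceeded Cebpb in all 4 controls and Cebpb exceeded Cebpa in all 8 lesion samples. The mean ratio was 0.763 ± 0.217 (SD, n = 4) in control and 1.25 ± 0.124 in IMQ + NS, a difference of 0.75 in the log2 ratio (exact permutation test, two-sided, p = 0.0286, adjusted p = 0.0429 over 3 comparisons). This is the smallest p that 4 against 4 samples allow. Cebpb and Cebpa had each been apart between IMQ + NS and control, in opposite directions, so this p was fixed in advance. It restates the changes of the single genes and is no further support for them. In IMQ + BZLF the mean was 1.27 ± 0.141, which differed from control by 0.78 (exact permutation test, p = 0.0286, adjusted p = 0.0429) and from IMQ + NS by 0.02 (exact permutation test, p = 0.829, adjusted p = 0.829). Without control replicate 2 the differences from control were 0.72 and 0.74. A ratio within a sample still takes in all cells of the skin, and the part of the cell mix in it was not tested.

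**Figure D4:**
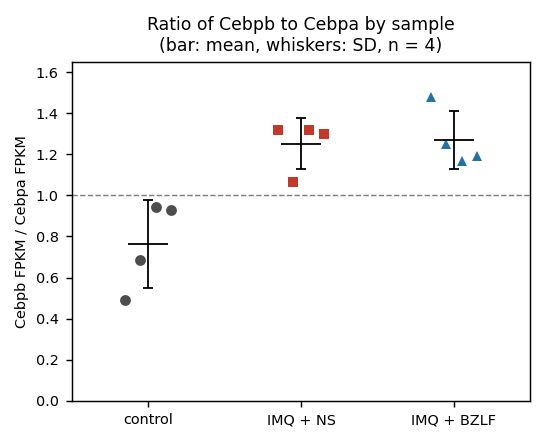
Ratio of Cebpb FPKM to Cebpa FPKM (vertical axis, from 0) in the 4 samples of each group, in replicate order, with the mean (bar) and SD (whiskers). The dashed line is a ratio of 1, and the controls (0.492 to 0.945) lie below it while the lesion samples (1.06 to 1.48) lie above it.

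IMQ + BZLF was then compared with IMQ + NS to ask whether the covering with BZLF altered these factors in the lesion. None of the 10 was higher (1.28% of all genes), 2 were lower (5.17%) and 8 did not pass the test, and none was past 2-fold in either direction (0.321% of all genes higher and 2.20% lower). At an unadjusted p below 0.05, 0 were higher and 5 were lower. The share of all genes at that threshold was not computed, here or for the lists below. Unadjusted counts are therefore not set against a background and are not read as an effect of BZLF. The median log2 fold change was -0.18 for the 10 genes and -0.02 for all tested genes. In 5 of them (Trp63, Grhl3, Klf4, Cebpa and Cebpb) every IMQ + BZLF value was below every IMQ + NS value, a pattern seen in 10.9% of all genes. The share of called genes that were higher was 19.8%, and it was 33.8% with median ratio scaling, 32.1% with quantile normalization and 42.4% when centred on the epithelial genes.

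Trp63 and Grhl3 were the 2 lower genes. With BZLF, Trp63 was at 34.4, 35.6, 30.8 and 33.1 FPKM, below the IMQ + NS range of 38.1 to 41.9 FPKM and, but for 1 control sample, above the control range. Its log2 fold change was -0.25 (SE 0.06, adjusted p = 0.0416, limma). Grhl3 had 12.7, 9.70, 12.7 and 10.1 FPKM with BZLF, between the control samples (4.47 to 6.76 FPKM) and the IMQ + NS samples (14.0 to 17.0 FPKM). Its log2 fold change was -0.46 (SE 0.11, adjusted p = 0.0373, limma).

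Both calls were close to the threshold. Trp63 did not pass with no filter (adjusted p = 0.0537), equal sums (0.0734), no trend (0.0806), quantile normalization (0.0984), median ratio scaling (0.129) or 1 fit of all 12 samples (0.658). Its call was also lost with a block for the replicate number. Grhl3 did not pass with quantile normalization (adjusted p = 0.0535), no trend (0.065), median ratio scaling (0.0688), no filter (0.0699) or 1 fit of all 12 samples (0.0989). The call of Trp63 was kept only without IMQ + BZLF replicate 1, and leaving out any other sample gave log2 fold changes of -0.28 to -0.21 and adjusted p-values of 0.0535 to 0.125. That of Grhl3 was kept without IMQ + BZLF replicate 1 or 3, while the removal of any other sample gave -0.51 to -0.39 and adjusted p-values of 0.0548 to 0.109. Without IMQ + BZLF replicate 1, Cebpb was called as well (-0.23, adjusted p = 0.0453, limma). Neither Trp63 (-0.15, adjusted p = 0.268, limma) nor Grhl3 (-0.36, adjusted p = 0.0775, limma) passed when centred on the epithelial genes, a scale on which 1.52% of all genes were higher and 2.07% lower.

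Ovol1, Prdm1, Zfp750 and Gata3 overlapped between the 2 IMQ groups and did not pass the test. In IMQ + BZLF replicates 1 to 4, Ovol1 had 67.9, 48.6, 49.8 and 44.8 FPKM, with a log2 fold change of 0.10 against IMQ + NS and a 95% interval of -0.17 to 0.37 (adjusted p = 0.655, limma). Prdm1 had 9.75, 8.87, 7.81 and 7.52 FPKM, with a difference of 0.05 and an interval of -0.16 to 0.26 (adjusted p = 0.79, limma). For both genes replicate 1 was the highest, and without it the differences were -0.03 and -0.02. Zfp750 read 52.5, 38.7, 44.3 and 40.6 FPKM, a difference of -0.17 with an interval of -0.38 to 0.04. Gata3 read 35.7, 24.1, 28.6 and 26.5 FPKM, a difference of 0.13 with an interval of -0.19 to 0.46. Each of these 4 intervals leaves out a change of 2-fold in either direction.

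The remaining factors were lower in mean with BZLF without passing the adjusted threshold. Klf4 had 33.4, 32.4, 35.3 and 33.0 FPKM, all under the lowest IMQ + NS value of 35.5 FPKM, and a log2 fold change of -0.16 (adjusted p = 0.11, limma). Cebpa, at 108, 119, 128 and 118 FPKM, differed by -0.22 (adjusted p = 0.0973, limma) and lay farther from control than IMQ + NS did. Cebpb stood at 159, 149, 149 and 140 FPKM, a difference of -0.20 (adjusted p = 0.0765, limma). Cebpd, at 12.04, 16.0, 14.9 and 21.5 FPKM, overlapped the IMQ + NS samples, with a difference of -0.27 and an interval of -0.64 to 0.10.

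IMQ + BZLF was also set against control. There 6 of the 10 genes were higher (23.8% of all genes), 2 were lower (29.2%) and 2 did not pass. Past 2-fold, 3 were higher (9.65% of all genes) and 1 was lower (10.1%). The median log2 fold change was 0.85, against -0.02 over all genes. Higher genes made up 44.9% of all calls, or 34.9% with equal sums of FPKM and 4.2% when centred on the epithelial genes. This comparison shares its control samples with that of IMQ + NS and its treated samples with that of the 2 IMQ groups, so the 3 are not independent.

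Ovol1 was higher in IMQ + BZLF than in control by 2.95 (SE 0.26, adjusted p = 7.32e-05, limma), Prdm1 by 2.20 (SE 0.16, adjusted p = 2.04e-05) and Zfp750 by 1.47 (SE 0.20, adjusted p = 0.00059) on the log2 scale. Grhl3 (0.96, adjusted p = 0.00138), Trp63 (0.89, adjusted p = 0.0125) and Gata3 (0.81, adjusted p = 0.00773) rose by less than 2-fold. Cebpd fell by 1.45 (adjusted p = 0.00809) and Cebpa by 0.53 (adjusted p = 0.00245). Cebpb (0.25, adjusted p = 0.185) and Klf4 (-0.12, adjusted p = 0.395) did not pass the test. Without control replicate 2 the values were 3.18 for Ovol1, 2.28 for Prdm1, 1.62 for Zfp750, 1.03 for Grhl3, 1.16 for Trp63, 0.98 for Gata3, -1.74 for Cebpd, -0.57 for Cebpa, 0.18 for Cebpb and -0.16 for Klf4, and the same 8 genes were called. When centred on the epithelial genes, 2 of the 10 factors (Ovol1 and Prdm1) were higher (3.79% of all genes) and 7 were lower (86.0%). Of these, Trp63 (-0.44), Grhl3 (-0.37) and Gata3 (-0.53) had been called higher before centring, and Cebpb (-1.09) and Klf4 (-1.45) had not been called. Zfp750 (0.14, adjusted p = 0.376, limma) no longer passed.

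A further 32 regulators of the epidermis and hair were set beside the 10. In IMQ + NS against control 20 were higher (29.0% of all genes), 4 were lower (27.1%) and 8 did not pass, with a median log2 fold change of 0.67. The removal of control replicate 2 gave 23 higher and 4 lower. That removal also raised the count of higher genes among all 15288 from 4427 to 6036, and that of lower genes from 4142 to 4425. Centred on the epithelial genes, 4 were higher (4.06% of all genes) and 18 lower (86.2%). Dlx3, a homeobox factor of late epidermal differentiation and of the hair follicle, had 5.61, 60.5, 4.18 and 3.72 FPKM in control and 131, 122, 100.4 and 138 FPKM in IMQ + NS. Control replicate 2 stood far above the others, and the log2 fold change was 3.81 (SE 0.79) with it and 4.75 without it. Ehf, an ETS factor of epithelial cells, had 1.11 to 1.55 FPKM in control and 14.8 to 22.2 FPKM in IMQ + NS, a log2 fold change of 3.66 (SE 0.15), or 3.65 without control replicate 2. Vdr, the vitamin D receptor, which acts in keratinocyte differentiation and the hair cycle, had a log2 fold change of 2.40, or 2.99 without control replicate 2, whose 45.3 FPKM stood above the 7.98 to 9.57 FPKM of the other controls.

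The 4 lower regulators were Satb1 (-1.35), a chromatin organizer, Nr3c1 (-0.88), the glucocorticoid receptor, Rbpj (-0.61), the DNA-binding partner of Notch, and Rora (-0.53), a nuclear receptor. They were named after their values were seen, and without control replicate 2 their values were -1.56, -0.91, -0.66 and -0.62. Satb1 (means of 1.72 FPKM in control and 0.593 FPKM in IMQ + NS) and Rbpj (1.58 and 0.998 FPKM) were at low levels. In IMQ + BZLF against IMQ + NS none of the 32 was higher (1 at an unadjusted p below 0.05) and 4 were lower, with a median of -0.12. Over all genes 1.28% were higher and 5.17% lower. These were Ehf (-0.80, SE 0.12, adjusted p = 0.00847, limma), Pou3f1 (-0.31, adjusted p = 0.023), a POU factor of keratinocytes, Rxra (-0.18, adjusted p = 0.032), a retinoid receptor, and Elf3, an ETS factor of epithelia named after its values were seen (-1.26, adjusted p = 0.015). Elf3 was at low levels, with means of 0.319 FPKM in control, 1.76 FPKM in IMQ + NS and 0.656 FPKM in IMQ + BZLF. Ehf was called without any 1 sample. Against control, 19 of the 32 were higher (23.8% of all genes) and 6 lower (29.2%) with BZLF.

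**Figure D5:**
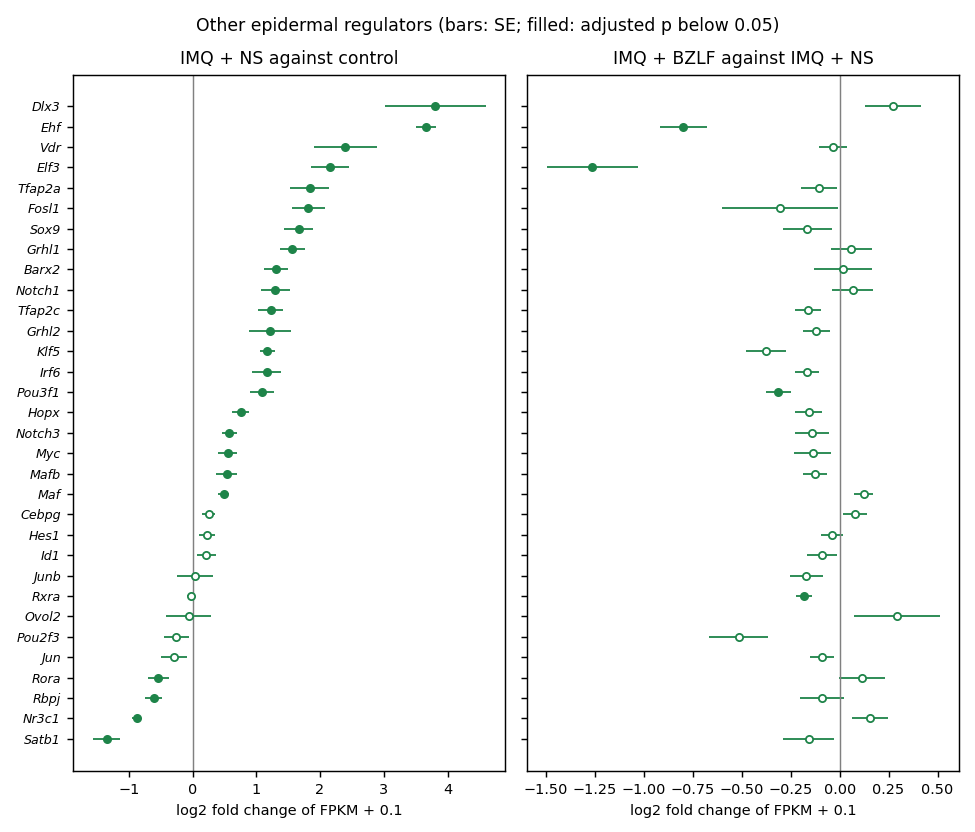
Log2 fold change (horizontal axes, a different range in each panel) with its SE for 32 other regulators, sorted by their value in IMQ + NS against control and filled where the adjusted p was below 0.05. In the left panel 20 filled points lie above 0 and 4 below it, and in the right panel the 4 filled points, Elf3, Ehf, Pou3f1 and Rxra, are all below 0.

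Genes of the layers on which these factors act were followed from lists chosen with earlier results of these data known. Over all genes 29.0% were higher and 27.1% lower in IMQ + NS against control, or 4.06% and 86.2% when centred. In IMQ + BZLF against IMQ + NS the shares were 1.28% and 5.17%, or 1.52% and 2.07% when centred. Of 10 basal layer genes, 6 were higher and 1 lower in IMQ + NS than in control, and 5 were lower and none higher (1 at an unadjusted p below 0.05) in IMQ + BZLF than in IMQ + NS. Centred on the epithelial genes, 1 was higher and 6 lower in IMQ + NS, and 1 was lower with BZLF. Krt14, a keratin of basal cells, had 405, 460, 510 and 571 FPKM in control, 1590, 2000, 2958 and 1852 FPKM in IMQ + NS and 516, 896, 697 and 748 FPKM in IMQ + BZLF. It rose by 2.08 (SE 0.19) in IMQ + NS, or 2.06 without control replicate 2, and was lower by 1.54 (log2 fold change -1.54, SE 0.22, adjusted p = 0.00571, limma) with BZLF. Its partner Krt5 had log2 fold changes of 1.32 and -0.78 and the laminin chain gene Lama3 1.23 and -0.38, of which the last did not pass (adjusted p = 0.126, limma). Without control replicate 2 the rises of Krt5 and Lama3 were 1.35 and 1.39, and centred on the epithelial genes they were at -0.11 and -0.20 and did not pass. Itga6 (-0.56), Itgb4 (-0.44), which encode the integrin of hemidesmosomes and were named after their values were seen, and Lamb3 (-0.77) completed the genes that were lower with BZLF. Krt15 was the basal gene lower in IMQ + NS (-0.83, or -0.89 without control replicate 2), also named after its values were seen.

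Of 10 spinous layer genes, 5 were higher and 1, Ptgs1 (-1.27, named after its values were seen), was lower in IMQ + NS, and 1 was lower with BZLF. Centred on the epithelial genes, 2 were higher and 6 lower in IMQ + NS, and 0 were called with BZLF. The removal of control replicate 2 gave 5 higher and 3 lower. Krt1, a keratin of suprabasal cells, had a log2 fold change of 2.37 in IMQ + NS (SE 0.33), the desmosomal cadherin gene Dsc1 2.04 and the calmodulin-like gene Calml3 1.73. With control replicate 2 left out these were 2.08, 2.09 and 1.81, and Ptgs1 was at -1.53. The gene lower with BZLF was Lgals7, a galectin of stratified epithelia (-0.52, adjusted p = 0.0245, limma).

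The 17 tested genes of the granular and cornified layers were split, with 10 higher and 3 lower in IMQ + NS, or 10 and 4 without control replicate 2. Centred on the epithelial genes, 6 were higher and 6 lower. Sprr1b, a small proline-rich protein of the cornified envelope, had 0.321, 0.350, 0.268 and 0.811 FPKM in control and 127, 237, 293 and 180 FPKM in IMQ + NS, a log2 fold change of 8.64 (SE 0.33). The cross-linking enzyme gene Tgm3 had a log2 fold change of 4.002. Lce1m, a late cornified envelope gene, fell by 4.57 on the log2 scale (SE 0.35), and Flg2 (-3.35), a filaggrin relative, and Lor (-1.03), the loricrin gene, both named after their values were seen, were also lower. For Lor the groups overlapped and the call was close to the threshold (SE 0.37, adjusted p = 0.0422, limma). Without control replicate 2 the values were 8.58 for Sprr1b, 3.70 for Tgm3, -4.91 for Lce1m, -3.56 for Flg2 and -1.36 for Lor. With BZLF, Lce1m (2.30, SE 0.30) and Flg2 (1.98, SE 0.35) were higher than in IMQ + NS, and Sprr1b (-2.39), Klk7 (-0.88) and Abca12 (-0.69) were lower, the last 2 named after their values were seen. Centred on the epithelial genes, 2 were higher and 1 lower with BZLF. On that scale Klk7 (adjusted p = 0.0692, limma) and Abca12 (adjusted p = 0.0773, limma) did not pass.

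Markers of other cells moved in the same comparisons, and their counts stand beside the shares of all genes given for the layer lists. The 10 neutrophil genes added up to 38.2 to 57.7 FPKM in control, 3135 to 9915 FPKM in IMQ + NS and 64.5 to 86.3 FPKM in IMQ + BZLF, with 9 of 10 higher in IMQ + NS and 10 of 10 lower with BZLF. All 9 inner root sheath genes were higher in both IMQ groups than in control, and none passed the test between the IMQ groups, where 4 were higher with BZLF at an unadjusted p below 0.05. Of the macrophage genes 8 of 10, of the sebaceous gland genes 7 of 10 and of the endothelial genes 6 of 8 were lower in IMQ + NS than in control, and 9 of 10 cell division genes were higher, of which 0 were called when centred on the epithelial genes. Of the T cell genes 3 of 11 were higher and 2 lower, and of the B and plasma cell genes 3 of 5 were higher. Without control replicate 2, 9 adipocyte, 8 endothelial and 5 T cell genes were lower and 10 cell division genes higher, and the other lists kept these counts. With BZLF, 1 T cell gene, 1 B cell gene, 2 macrophage genes and 1 cell division gene were lower and 1 adipocyte gene was higher than in IMQ + NS. No marker of any list was at 0 in all samples of a group, and the part of these cells in the values of the 10 factors was not tested.

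The genes whose log2(FPKM + 0.1) most resembled that of Ovol1 over the 12 samples, among 12656 others, were Map3k6 (Pearson r 0.997), Gsdma (0.997), Proser2 (0.997), Crybg1 (0.997) and Pkp3 (0.996). Gsdma, a gasdermin of the suprabasal epidermis, averaged 12.8 FPKM over the controls, 80.4 FPKM with IMQ + NS and 83.6 FPKM with IMQ + BZLF. Within the set of 10, Prdm1 (r 0.993) and Zfp750 (0.986) were the most like Ovol1. For Grhl3 the nearest genes were Mapkapk3 (0.992), Lypd3 (0.985), Lgals7 (0.984), Perp (0.983) and Vav3 (0.982). Perp, a desmosomal protein gene and a target of p63, had a mean of 460 FPKM in control, 924 FPKM in IMQ + NS and 787 FPKM in IMQ + BZLF. The 12 points fall into 3 treatment groups, which every gene shares, so no p is given.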

How the data were processed

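A table of 18505 genes held the RNA-seq values of 12 back skin samples, with 4 samples in every group. The authors deposited FPKM values with 1 value per gene and sample, scaled to transcript length and mapped fragments and not on a log scale. The study's methods name Bowtie2 and eXpress, mirVana extraction and a TruSeq Stranded kit with removal of ribosomal RNA, while the submitters' processing notes name fastp, HISAT2, HTSeq, R 3.2.0 and the build mm10 and the labels name TRIzol and a VAHTS kit. The annotation is not given in the sources used here. FPKM values keep no read counts, so depth per sample, counting intervals and count tests were not available. The label of the saline samples is spelled MQ_NS in the sample titles and IMQ_NS in the table.

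Genes with a mean of at least 0.1 FPKM over the 12 samples (15288) were tested on log2(FPKM + 0.1) with limma 3.58.1 in R 4.3.3, with moderated variances and a trend on expression, for each pair of groups alone, two-sided, with Benjamini-Hochberg adjustment over all genes. A gene was called at an adjusted p below 0.05. Fold changes of genes with low FPKM are understated by the added 0.1. The ratio of Cebpb to Cebpa was compared by an exact permutation test, two-sided, over the 70 ways to split 8 samples evenly, with SciPy 1.17.1. On simulated data with 200 of 15288 genes changed in IMQ + NS against control, 77.1% of 2-fold and 96.2% of 4-fold changes were recovered and 7 unchanged genes were called. The simulation pooled the SD of each gene over all groups and changed only genes with a mean of at least 1 FPKM. In the data 29.0% of genes were called higher and 27.1% lower, so the simulated figures need not hold there. Sequences and positions are from RefSeq tables of GRCm38.p6, and 6 of the 10 genes had a promoter there. Tables were handled with Python 3.11.15, pandas 2.3.3 and matplotlib 3.10.9.

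The 10 genes and all lists were chosen with earlier results of these data known. All 10 were described. From the lists of other regulators and of basal, spinous, granular and epithelial genes, those named by rule were the 3 largest called changes in IMQ + NS against control and in IMQ + BZLF against IMQ + NS with a mean of at least 1 FPKM, and exceptions are marked. From the lists of other cell types counts and sums are given. The likeness of genes was taken for the members with the largest changes in these comparisons. The alternatives were an added 0.01 or 1 FPKM, no filter or a mean of at least 1 FPKM, median ratio scaling, equal sums, quantile normalization, centring on epithelial genes, 1 fit of all 12 samples, no trend, a block for the replicate number, robust moderation and the removal of each sample. No batch is given in the labels.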

Additional observations from a re-analysis of the deposited data

Results flagged for a closer look

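A value was looked at again where 1 of the 4 samples of a group was far from the other 3, by Dixon's ratio of the gap to the range at its 95% critical value of 0.829. Chance does this in about 1 of 20 groups, and 11 of 93 groups tested did so, with 1 among the 30 groups of the 10 factors. That one was Trp63 in control replicate 2, at 31.55 FPKM against 14.3 to 15.9 in the other controls. In the same sample Dlx3 was at 60.53 FPKM against 3.72 to 5.61, and Vdr at 45.3 FPKM against 7.98 to 9.57. Dlx3 was also apart in IMQ + BZLF replicate 1, at 194 FPKM against 130 to 137.

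Among IMQ + NS samples, Krt5 was at 2186 FPKM in replicate 3 against 1410 to 1514, Calml3 at 205.2 FPKM in replicate 1 against 178 to 182, and Pkp1, a plakophilin of desmosomes, at 239.5 FPKM in replicate 3 against 213 to 217. Pkp1 was at 188.2 FPKM in IMQ + BZLF replicate 1 against 168 to 169. Among controls, Dsc1 was at 19.19 FPKM in replicate 1 against 30.6 to 31.2, and Sprr1b at 0.8107 FPKM in replicate 4 against 0.268 to 0.350. The log2 ratio of Cebpb to Cebpa was 0.09063 in IMQ + NS replicate 2, against 0.377 to 0.400 in the other 3 samples.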

How the results depend on the processing

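Against control the counts of called factors (9 in IMQ + NS, 8 in IMQ + BZLF) stayed within 1.5 times under every alternative run and were 7 to 9 and 8 in all fits when a sample was left out, but directions did not all hold. The background moved as well. In IMQ + NS against control 29.0% of all genes were higher and 27.1% lower, and with centring 4.06% and 86.2%. Without control replicate 2, 6036 of 15288 genes were higher and 4425 lower, against 4427 and 4142 with it. Where most genes are called, a like count of factors is not evidence of stability. Centred on the epithelial genes, Trp63 was at -0.29, Klf4 at -1.39, Grhl3 at -0.0089, Gata3 at -0.76, Cebpb at -0.98, Krt5 at -0.11 and Lama3 at -0.20 in IMQ + NS against control, and Trp63 at -0.44, Grhl3 at -0.37, Gata3 at -0.53 and Cebpb at -1.09 in IMQ + BZLF against control. Klf4 in IMQ + NS against control was also at -0.0902 with equal sums, -0.0298 with quantile normalization, and -0.034 to 0.12 without a sample (-0.034 without control replicate 1, -0.0035 without control replicate 2). Between the IMQ groups the 2 called factors became 0 with no filter, median ratio scaling, quantile normalization, centring, 1 fit of all samples or no trend and 1 with equal sums, and were 0 to 3 when a sample was left out. Without IMQ + BZLF replicate 1, Ovol1 was at -0.025 and Prdm1 at -0.018, the low ends of ranges up to 0.17 and 0.11. The 4 called regulators became 2 with centring, 1 fit of all samples or no trend, and were 1 to 6 without a sample. The ratio of Cebpb to Cebpa differed from control by 0.56 to 0.87 (IMQ + NS) and 0.58 to 0.90 (IMQ + BZLF) without a sample, where 3 against 4 samples cannot pass the adjusted threshold, and between IMQ groups the difference was -0.0508 without IMQ + BZLF replicate 1 and -0.0519 without IMQ + NS replicate 2, in a range up to 0.0621. Deviations of samples with the same number correlated at r from -0.15 to 0.26, not above 0.1 in every pair. Of 8 samples, 4, 6 and 4 in the 3 comparisons correlated best with their own number. The counts that chance would give were not computed, so these values do not settle whether the numbers mark pairs. The main tests did not take the numbers as pairs. With the replicate block 8 factors were called in IMQ + NS against control (Cebpa was lost, adjusted p = 0.056), 1 between the IMQ groups (Trp63 was lost, adjusted p = 0.0955) and 8 in IMQ + BZLF against control, 2 of the 32 regulators were called between the IMQ groups, and the ratio differences of 0.75 and 0.78 could not pass with 4 pairs. Removing control replicate 2 moved the median log2 fold change of all genes in IMQ + NS against control to 0.10, and equal sums moved it to -0.12 in IMQ + BZLF against control, while centring moved it to -1.38 and -1.35. The cause of these shifts was not tested. Depth could not be weighed, since the values hold no counts.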

Other observations

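Among the 4 controls, replicates 3 and 4 had higher values than replicates 1 and 2 for Klf4 (40.5 and 42.2 against 30.9 and 32.9 FPKM), Cebpb (148 and 156 against 99.5 and 108 FPKM) and Cebpd (68.9 and 64.3 against 33.2 and 23.4 FPKM). The AP-1 genes Junb (199 and 214 against 85.5 and 108 FPKM) and Jun (67.3 and 67.3 against 33.9 and 44.9 FPKM) were arranged in the same way, as was the transglutaminase gene Tgm3 (12.7 and 13.9 against 2.92 and 3.39 FPKM). In the IMQ + NS samples Junb kept to 142 to 146 FPKM and Jun to 40.9 to 43.0 FPKM. These values were picked after they had been seen and carry no test.

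IMQ + BZLF replicate 1 had the highest value of its group for Ovol1, Gata3, Zfp750, Prdm1 and Cebpb and the lowest for Cebpa and Cebpd. It also had the highest summed inner root sheath genes (14555 FPKM, against 10293 to 11785 in the other 3) and the lowest summed basal layer genes (1737 FPKM, against 2033 to 2426). Whether these belong together was not tested.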
